A study of Mus musculus with 25 samples.

Results

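Interferon-stimulated genes were followed as a list of 50 named genes among the 24537 genes of a raw count table from mouse myeloid cells. They were chosen by symbol under a rule that uses no measured value, but with earlier results of these data known. All 50 were found in the table, and all 50 passed the filter on low counts that left 16961 genes for testing. The table held 25 RNA-seq libraries, each made from 200 sorted cells of C57BL6 mice. Macrophages came from white adipose tissue (eWAT in the titles) of mice on a high fat diet (HFD, 45% fat) or a control diet (CD, 10% fat), in 4 gates with 2 libraries per gate and diet. The Tim4+ gates were pop1, with low MHCII, and pop2, with high MHCII. The Tim4- gates were pop3, without CD11c and with high MHCII, and pop4, with CD11c and MHCII. Blood monocytes (Mono), gated on CD115 and Ly6C, gave 3 HFD and 6 CD libraries. The fat pads were freed of their cells by collagenase with flavopiridol, which blocks transcription, and no such step is described for blood, so tissue, gate and handling cannot be told apart in any comparison of adipose macrophages with monocytes. The control libraries of adipose tissue, and 3 of the 6 of monocytes, were titled CD-CD, the others CD, and the labels do not say what the titles mean or whether a library was 1 animal or a pool, so that p-values measure the spread between these libraries.

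Interferons are secreted proteins that warn cells of infection. Type I interferons bind the receptor pair IFNAR1 and IFNAR2, the kinases JAK1 and TYK2 then act on STAT2 among others, and a complex that holds STAT2 and IRF9 binds interferon-stimulated response elements in the promoters of its targets. Many targets detect or disable viral RNA and DNA, some amplify the signal (IRF7) and others end it (USP18), and monocytes and macrophages keep a low basal level of the response without infection. Levels below are in CPM, each gene's counts relative to the library total and scaled by edgeR's TMM factors. Differences are log2 ratios from edgeR's quasi-likelihood test, and a gene was called where its p, adjusted by Benjamini-Hochberg over the 16961 genes, was below 0.05.

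The sort markers followed the gates. Timd4, which encodes Tim4, averaged 439 ± 157 CPM in pop1, 313 ± 252 in pop2, 3.28 ± 5.75 in pop3, 2.72 ± 5.27 in pop4 (SD, n = 4 each) and 0.247 ± 0.249 in monocytes (n = 9). Itgax, which encodes CD11c, stood at 185 ± 5.06 CPM in pop4 and at 20.1 ± 18.4 in pop3, and Ly6c2 at 3.04 ± 5.81 CPM in adipose libraries against 499 ± 74.3 in monocytes. Depth ran from 3752835 to 8524867 counts in the 16 adipose libraries and from 6502394 to 9336395 in the 9 monocyte libraries, so that 3 counts, the floor used here for a level near zero, correspond to 0.342 to 0.7 CPM. As a gauge of background, olfactory and vomeronasal receptor genes summed to 79.6 to 686 CPM (median 358) in adipose and 93.1 to 256 CPM (median 147) in monocyte libraries. That floor covers counting error only.

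The members' summed share of all counts was 0.29 to 0.769% in adipose libraries (median 0.51%) and 1.07 to 1.34% in monocytes (median 1.18%), with no overlap. In 34 of the 50 genes every adipose library was over the floor, and in 48 every monocyte library was. Per kilobase of transcript, the highest adipose means were Ifi27 at 216, Rtp4 at 124 and Trim30a at 113 CPM per kb, and the lowest were Oas3 at 3.74, Isg15 at 2.89 and Ifi44 at 1.02. In monocytes the highest were Ifi47 at 380, Slfn1 at 347 and Zbp1 at 310 CPM per kb, and the lowest were Ifi44 at 11.6, Oasl1 at 7.25 and Gbp8 at 1.18. The members also varied more among adipose libraries, which span 4 populations, than among those of monocytes, a single gate. The median coefficient of variation was 0.654 in adipose tissue and 0.229 in monocytes, beside 0.815 and 0.655 over all tested genes. The 2 adipose libraries of the same gate and diet also differed. Between them 6 to 15 of the 50 members were over 4-fold apart in CPM + 1, beside 7.88 to 15.2% of all tested genes.

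**Figure D1:**
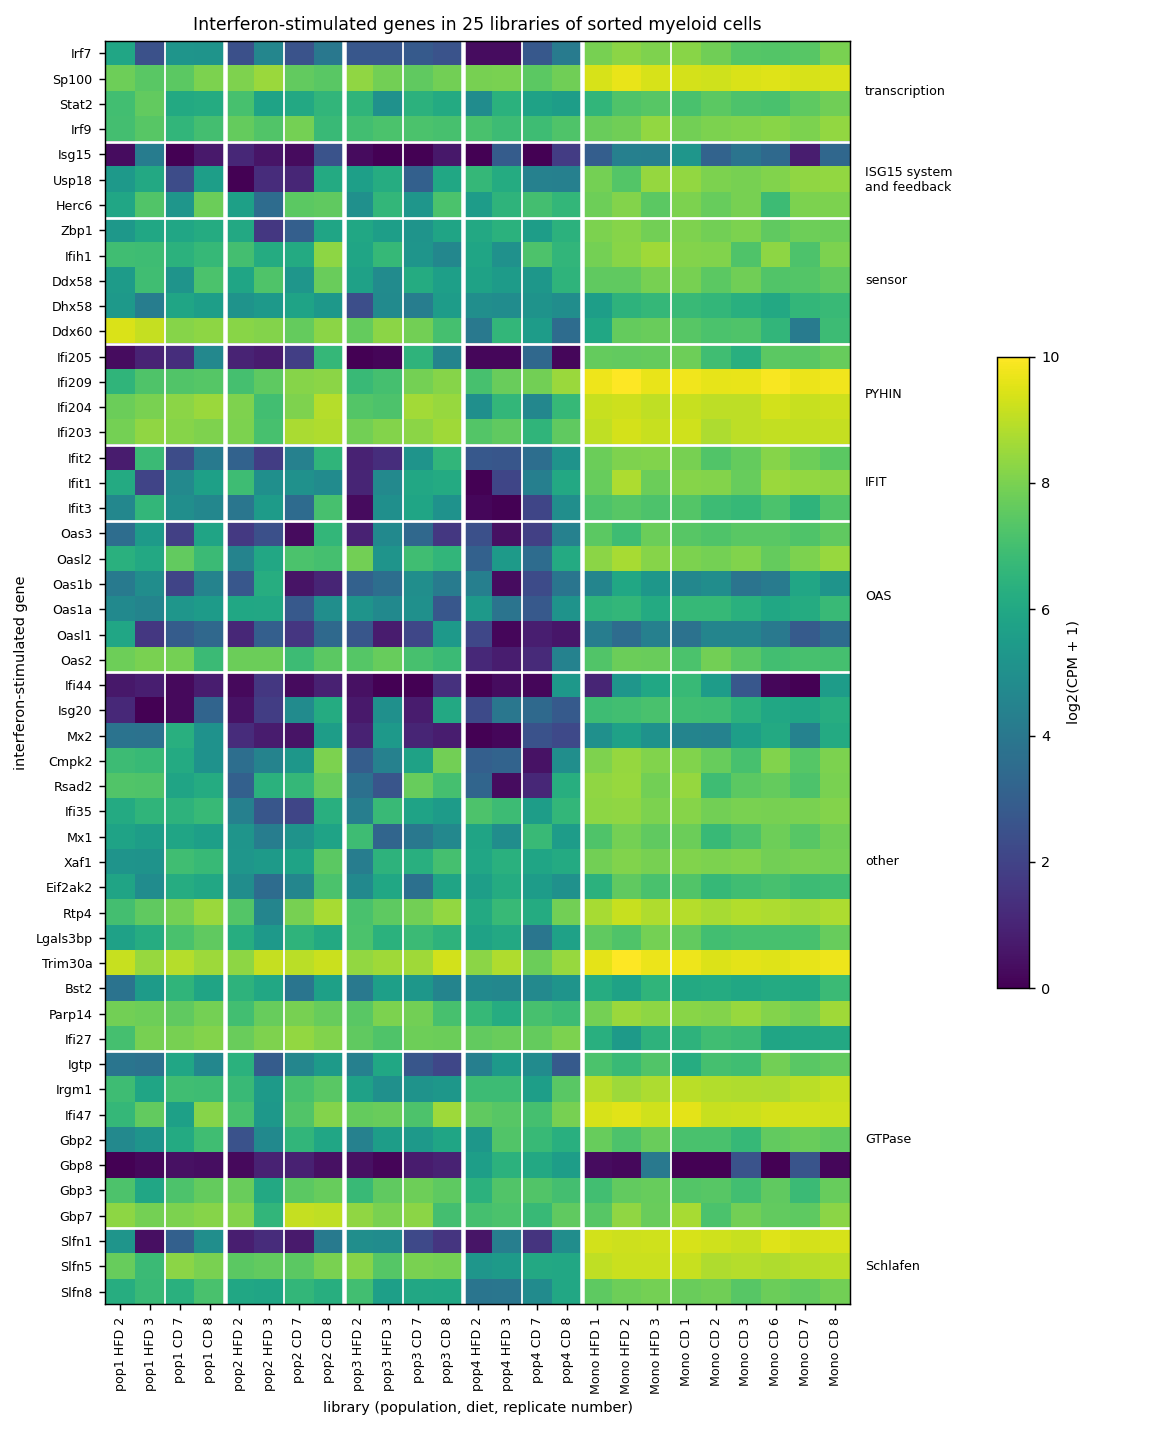
Levels of the 50 interferon-stimulated genes as log2(CPM + 1), genes in rows grouped by role and the 25 libraries in columns, adipose populations left of monocytes and HFD left of CD. Brighter is higher: most rows are darker in the 16 adipose columns than in the 9 monocyte columns, Ifi27 is the reverse, and Gbp8 is brightest in the 4 pop4 columns.

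Promoter sequence was available for 38 members, and 5 are printed to show the response-element letters in genes that were far lower in adipose macrophages (Isg15, Ifit1, Ifi205) and in genes that were not (Ddx60, Gbp7). Each line gives the 250 bases before the annotated start, 5′ to 3′ on the gene's strand, from RefSeq on GRCm38.p6. Capitals mark GAAA, any 2 bases and GAAA again, or the same on the other strand (TTTC, any 2 bases and TTTC), the paired letters of a response element, and overlapping matches run together. The lines cover, in the order printed, chr4:156200819-156201068 on the minus strand, chr19:34640639-34640888 on the plus strand, chr1:174031756-174032005 on the minus strand, chr8:61927837-61928086 on the plus strand and chr3:142530086-142530335 on the plus strand.
Isg15: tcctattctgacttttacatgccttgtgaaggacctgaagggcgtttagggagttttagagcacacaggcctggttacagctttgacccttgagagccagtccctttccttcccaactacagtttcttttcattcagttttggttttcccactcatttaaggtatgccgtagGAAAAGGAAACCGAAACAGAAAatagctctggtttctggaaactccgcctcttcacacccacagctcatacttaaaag
Ifit1: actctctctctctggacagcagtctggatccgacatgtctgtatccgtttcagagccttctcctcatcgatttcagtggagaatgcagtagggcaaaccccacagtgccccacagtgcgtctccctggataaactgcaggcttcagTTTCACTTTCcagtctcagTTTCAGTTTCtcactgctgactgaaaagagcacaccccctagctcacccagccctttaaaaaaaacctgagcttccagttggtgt
Ifi205: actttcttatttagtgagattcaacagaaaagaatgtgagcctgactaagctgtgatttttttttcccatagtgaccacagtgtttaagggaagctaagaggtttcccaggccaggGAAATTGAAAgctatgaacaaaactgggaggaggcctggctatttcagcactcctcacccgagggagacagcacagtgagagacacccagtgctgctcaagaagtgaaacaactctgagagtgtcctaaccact
Ddx60: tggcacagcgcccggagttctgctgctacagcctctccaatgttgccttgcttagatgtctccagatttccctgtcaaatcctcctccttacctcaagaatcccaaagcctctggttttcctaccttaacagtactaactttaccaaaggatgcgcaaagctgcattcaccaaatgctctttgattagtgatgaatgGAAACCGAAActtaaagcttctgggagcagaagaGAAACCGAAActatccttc
Gbp7: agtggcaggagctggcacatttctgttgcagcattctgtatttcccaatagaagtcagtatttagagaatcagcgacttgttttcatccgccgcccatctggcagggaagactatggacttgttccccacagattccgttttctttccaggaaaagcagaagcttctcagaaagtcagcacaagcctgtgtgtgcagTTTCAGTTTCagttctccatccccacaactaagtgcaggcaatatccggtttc
Isg15 holds 3 overlapping matches, Ifit1 and Ddx60 2 each, and Ifi205 and Gbp7 1 each. In the full window, which also takes 50 bases after the start, 22 of the 38 members (57.9%) held a match, beside 1079 of 27025 genes (3.99%) in the table. The letters of an interferon gamma-activated site, TTCNNNGAA, which reads the same on both strands, were in 8 of 38 members (21.1%) and in 9.55% of all genes. A match is a run of letters and not a measured binding site. The 22 members with the GAAA pair had a median difference of -1.71 between adipose macrophages and monocytes, with 19 lower and 3 not called, and the 16 without it a median of -2.12, with all 16 lower.

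Against blood monocytes, adipose macrophages had lower levels of nearly the whole list. In the mean of the 4 populations and 2 diets, 45 of the 50 genes were lower, Ifi27 alone was higher, and Ddx60, Gbp3, Gbp7 and Gbp8 were not called. Over all tested genes 18.5% were lower and 18.5% higher. The median difference of the members was -1.78, against 0.19 over all genes. In 17 members every adipose library was below every monocyte library, beside 2.32% of all genes, and 1 was above, beside 1.3%. In bulk libraries such as these, fewer cells of a type and less RNA per cell cannot be told apart.

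All 4 genes of transcription were lower. Irf7 (chr7:141263183-141266424), the factor that amplifies interferon production, ranged from 0.246 to 60.1 CPM (median 5.66) in adipose libraries and from 161 to 305 CPM (median 248) in monocytes, and the ranges did not meet. Its difference was -4.93 ± 0.35 (SE; edgeR adjusted p = 6.99e-10). Irf9 and Stat2, the partners that form the response complex, differed far less. Irf9 ranged from 94.3 to 239 CPM (median 138) against 209 to 335 (median 261) in monocytes, a difference of -0.91 ± 0.14 (edgeR adjusted p = 2.87e-05), and Stat2 from 28.1 to 194 (median 68.4) against 95 to 228 (median 150), a difference of -1.01 ± 0.22 (edgeR adjusted p = 0.00124). Both pairs of ranges overlapped. Sp100, a nuclear body protein, was at 171 to 362 CPM (median 228) against 627 to 819 (median 676) with no overlap, and a difference of -1.62.

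The ISG15 system was lower in all 3 members. Isg15 (chr4:156199424-156200818), a ubiquitin-like modifier, was scarce everywhere: 0 to 17.5 CPM (median 0.371) in adipose libraries, of which 10 of 16 were at or under the floor, and 0.761 to 37.4 CPM (median 9.66) in monocytes, a difference of -3.82 ± 0.88 (edgeR adjusted p = 0.00216). Usp18 (chr6:121245906-121270917), the protease that removes ISG15 and dampens receptor signalling, had 0 to 101 CPM (median 44.3) in adipose libraries and 158 to 342 CPM (median 276) in monocytes. Its ranges did not meet, and its difference was -3.49 ± 0.46 (edgeR adjusted p = 4.93e-06). Herc6, the ISG15 ligase of mouse, differed by -1.37, with overlap.

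Among nucleic acid sensors, 4 of the 5 sensor genes and all 4 genes of the PYHIN family, whose members bind DNA, were lower. Ifih1, the RNA sensor MDA5, had 23.8 to 312 CPM (median 89.6) in adipose and 148 to 379 CPM (median 277) in monocyte libraries, a difference of -1.66 ± 0.22 (edgeR adjusted p = 5.98e-06). Zbp1, which senses Z-form nucleic acid, had 2.1 to 85.2 CPM (median 58.7) in adipose libraries and 187 to 290 CPM (median 233) in monocytes, with a difference of -2.28 ± 0.34 (edgeR adjusted p = 2.43e-05). Zbp1 did not overlap, whereas the highest adipose library of Ifih1, pop2 CD library 8, was above all but 2 of the monocyte libraries. Dhx58, the regulator LGP2 of the RNA sensors, had 4.26 to 58.4 CPM (median 34) against 47.4 to 109 CPM (median 96.2), a difference of -1.38 ± 0.28 (edgeR adjusted p = 6.61e-04). Ddx58, the sensor RIG-I, differed by -1.48, and Ddx60, a helicase linked to RIG-I signalling, was the exception with 10.6 to 693 CPM (median 255) in adipose libraries and 17 to 207 CPM (median 144) in monocytes, a difference of 0.41 ± 0.35 that was not called (edgeR adjusted p = 0.378).

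The PYHIN genes lie together on chromosome 1 between 173630859 and 174031755 (mm10, the build of the files) but differed widely in size of effect. Ifi205 had the largest difference of the whole list, with 0 to 101 CPM (median 0.983) in adipose and 78.1 to 218 CPM (median 192) in monocyte libraries. It was -6.23 ± 0.59 (edgeR adjusted p = 5.61e-08), and 7 of the 16 adipose libraries were at or under the floor, so its size rests on few counts. Ifi204, which encodes the DNA sensor p204, had 24 to 472 CPM (median 232) against 507 to 638 CPM (median 570), without overlap, and a difference of -1.62 ± 0.2 (edgeR adjusted p = 2.06e-06). Ifi209 and Ifi203 differed by -2.23 and -1.18, and Ifi209 did not overlap. These genes are relatives within a family, as are Ifit3 and Ifit3b, Oas1a and Oas1g, Slfn8 and Slfn9 and the Gbp genes. Each member is listed with 1 copy in the genome, but reads from stretches alike between relatives could be split in the authors' counting.

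The 3 IFIT genes, which bind viral RNA, were lower, with differences of -3.51 (Ifit1), -4.02 (Ifit2) and -3.18 (Ifit3). Ifit3 had 0 to 135 CPM (median 26.7) in adipose libraries and 90.8 to 167 CPM (median 145) in monocytes (-3.18 ± 0.52, edgeR adjusted p = 6.94e-05). Adipose libraries reached the monocyte range of Ifit3 in 2 cases, at 98.6 CPM in pop1 HFD library 3 and 135 CPM in pop2 CD library 8, and in none for Ifit1 or Ifit2. The 6 genes of the OAS family were all lower, from -3.90 for Oas3 to -1.42 for Oas2. Some enzymes of this family make the 2-5A signal that activates RNase L. Oas2 (chr5:120730333-120749848) had 0.741 to 256 CPM (median 149) in adipose and 123 to 236 CPM (median 155) in monocyte libraries (-1.42 ± 0.27, edgeR adjusted p = 3.03e-04), and its 4 lowest libraries, 0.741 to 20.6 CPM, were the 4 of pop4. Oas1b is annotated as non-coding in the table, and Oasl1 passed narrowly (-1.59 ± 0.61, edgeR adjusted p = 0.0443).

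**Figure D2:**
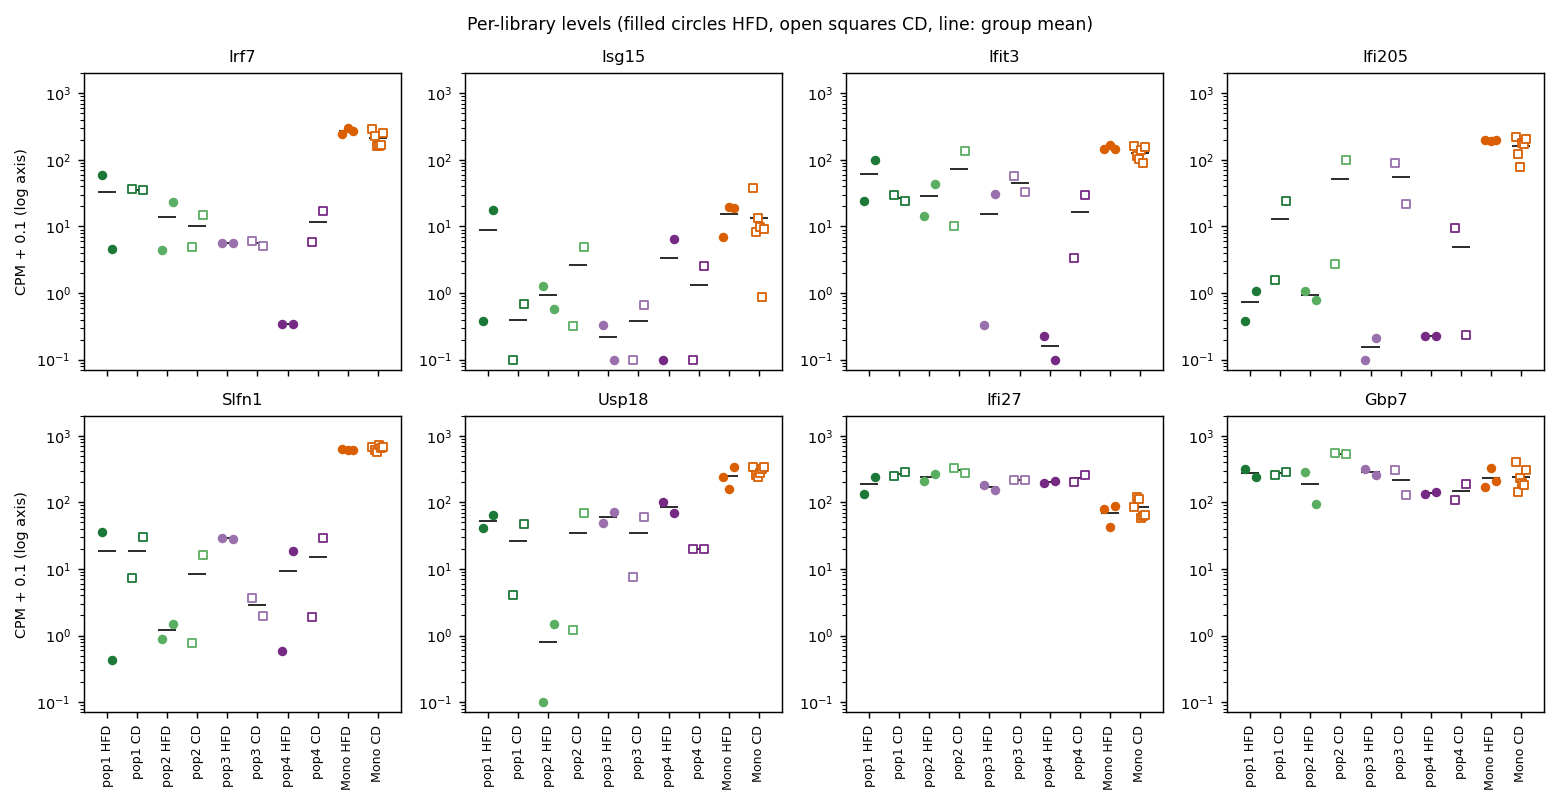
CPM + 0.1 on a log axis for 8 members in each of the 25 libraries, adipose populations left of monocytes, filled circles HFD and open squares CD, lines the group means. Irf7, Slfn1 and Usp18 do not overlap between tissues, Ifi27 is higher in all 16 adipose libraries, and Gbp7 overlaps.

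Of the 15 other effectors 14 were lower and 1 higher. Mx1, a dynamin-like GTPase whose protein is defective in C57BL/6 mice, had 8.65 to 118 CPM (median 46.2) in adipose libraries and 105 to 237 CPM (median 187) in monocytes (-2.08 ± 0.3, edgeR adjusted p = 1.41e-05). Rsad2, the radical SAM enzyme viperin, had 0.247 to 205 CPM (median 73.2) against 118 to 354 CPM (median 235) in monocytes (-2.47 ± 0.46, edgeR adjusted p = 3.09e-04). Bst2, the tetherin that holds budding virus at the surface, had 13.1 to 91.5 CPM (median 36.9) against 53.7 to 113 CPM (median 67.7) (-0.97 ± 0.28, edgeR adjusted p = 0.0114). These 3 genes overlapped between tissues, as did Eif2ak2, the kinase PKR, with 10.5 to 142 CPM (median 46.4) against 84.2 to 187 CPM (median 121) (-1.55 ± 0.3, edgeR adjusted p = 4.34e-04). Ifi44, a gene of little-known function, had a difference of -5.47 but is uncertain in both tissues, with 9 of 16 adipose and 2 of 9 monocyte libraries at or under the floor. Ifi27 (chr12:103434189-103440245), a small membrane protein of mitochondria, ran the other way, with 133 to 329 CPM (median 217) in adipose libraries and 42.5 to 122 CPM (median 78.4) in monocytes, without overlap (1.54 ± 0.18, edgeR adjusted p = 1.31e-06).

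The interferon-inducible GTPases, which attack membranes around intracellular pathogens, were lower in 4 of 7 cases. The 3 immunity-related GTPases were lower: Irgm1 had 31.1 to 175 CPM (median 112) against 374 to 567 CPM (median 458) in monocytes, without overlap (-2.45 ± 0.18, edgeR adjusted p = 1.62e-09). Igtp had 3.4 to 82.9 CPM (median 21.2) against 71.5 to 236 CPM (median 144), with slight overlap (-2.67 ± 0.35, edgeR adjusted p = 5.62e-06), and Ifi47 differed by -1.93, though its model shares its strand and 9971 bases with Olfr56. Of the 4 guanylate-binding proteins Gbp2 was lower, with 4.76 to 154 CPM (median 51.8) against 104 to 210 CPM (median 185) (-1.75 ± 0.26, edgeR adjusted p = 2.65e-05). Gbp3 (-0.16 ± 0.21) and Gbp7 (-0.02 ± 0.21), its neighbours on chromosome 3, were not called, and the sign of Gbp7 turned with other scaling factors.

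All 3 Schlafen genes, a family linked to growth control and viral restriction, were lower and did not overlap. Slfn1 (chr11:83116845-83122659) had 0.325 to 36.2 CPM (median 5.43) in adipose libraries and 575 to 730 CPM (median 638) in monocytes (-6.18 ± 0.57, edgeR adjusted p = 3.21e-08). Slfn5 had 37.6 to 307 CPM (median 186) against 450 to 593 CPM (median 493) (-1.81 ± 0.11, edgeR adjusted p = 7.38e-11), and Slfn8 differed by -1.80. Slfn5 overlaps the opposite-strand gene Slfn5os, and the strand setting of the counting is not given in the sources used here.

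With background counts as a covariate 31 members stayed lower and 1 higher, while calls over all genes went down to 1810, against 6278 without it, and Bst2, Dhx58, Eif2ak2, Isg15, Oas2 and Stat2 were among those no longer called. Stromal markers (6 genes) summed to 31.5 to 1340 CPM in adipose and 0.363 to 3.51 CPM in monocyte libraries, NK markers (7 genes) to 0 to 11.4 against 0.504 to 200 CPM, and red cell markers (7 genes) to 1.83 to 637 against 407 to 1420 CPM. Markers of non-classical monocytes (6 genes) summed to 9.08 to 216 CPM in adipose and 756 to 1340 CPM in monocyte libraries. Their part in the result was not tested.

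Each adipose population on its own was lower than monocytes in most members. In pop1, 31 were lower and 2 higher, beside 13.7% and 19.1% of all genes. In pop2 these were 36 and 1 members, beside 15.3% and 24.7%. In pop3 they were 39 and 1, beside 9.47% and 15.7%, and in pop4 40 and 2, beside 5.3% and 7.16%. The median member differences, from pop1 to pop4, were -1.41, -1.67, -1.90 and -1.94, beside 0.29, 0.28, 0.26 and -0.04 over all genes. Every library was below every monocyte library in 30 members of pop1, 21 of pop2, 31 of pop3 and 39 of pop4, beside 8.65%, 7.27%, 6.51% and 5.24% of all genes. It was above in 2, 1, 1 and 2 members, beside 10.3%, 12.1%, 7.27% and 5.67%. These 4 comparisons share the monocyte libraries. Ifi27 was higher in each (1.55, 1.81, 1.32 and 1.48), Ddx60 also in pop1 (1.70 ± 0.47, edgeR adjusted p = 0.00947) and Gbp8 also in pop4 (4.33 ± 1.28, edgeR adjusted p = 0.0284).

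Among called members, Ifi205, Ifi44 and Slfn1 were in the 5 lowest of pop1, pop2 and pop3. They stood at -5.97, -5.85 and -5.11 in pop1, at -4.74, -5.36 and -7.70 in pop2, and at -6.44, -6.35 and -6.16 in pop3. The remaining places were taken in pop1 by Isg20, a nuclease (-5.96), and Ifit2 (-3.27), in pop2 by Usp18 (-5.79) and Irf7 (-4.35), and in pop3 by Isg15 (-6.14) and Irf7 (-5.44). In pop4 the 5 lowest were Ifi205 (-7.75), Irf7 (-7.11), Ifit3 (-6.93), Mx2, a relative of Mx1 (-6.12), and Slfn1 (-5.74). Several of these fits rest on libraries at or under the floor, as the levels above show, and their sizes are imprecise. Several members were called in some populations and not in others. Stat2, Bst2, Rsad2, Dhx58 and Ifit3 were lower in pop3 and pop4 and not called in pop1 or pop2. Ifi35, Ifi44 and Gbp2 were lower in pop1, pop2 and pop3 and not called in pop4. The differences of all these genes were below zero in every population. Oas2 and Ddx60 also varied in sign. Oas2 was not called in pop1 (0.24 ± 0.38), pop2 (0.02 ± 0.38) or pop3 (-0.21 ± 0.39) and was lower in pop4 (-5.71 ± 0.54, edgeR adjusted p = 1.9e-07). Ddx60 was higher in pop1, not called in pop2 (1.02) and pop3 (0.67), and lower in pop4 (-1.75 ± 0.53, edgeR adjusted p = 0.0322).

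**Figure D3:**
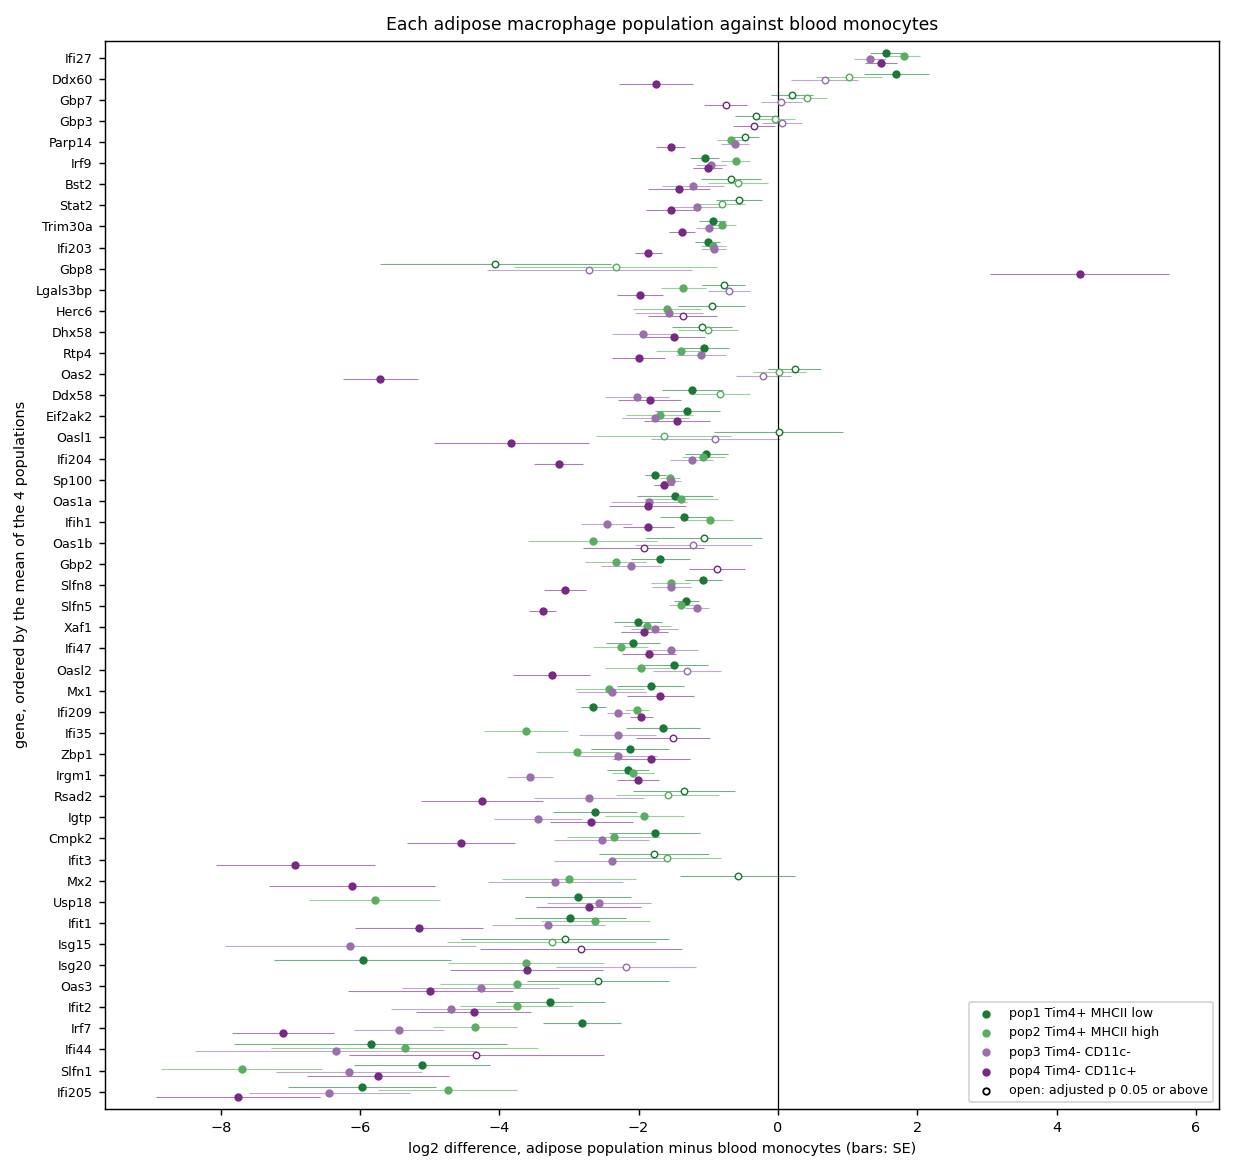
Log2 differences from monocytes for each of the 50 genes (rows), 1 symbol per adipose population with a bar of 1 SE, filled where called. Most symbols lie left of zero, Ifi27 lies right of it for all 4 populations, and Oas2 and Ddx60 in pop4 lie apart from the other 3.

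Within adipose tissue, Tim4+ macrophages (pop1 and pop2) were set against Tim4- macrophages (pop3 and pop4). Of the 50 genes 12 were higher in Tim4+ cells, 1 was lower and 37 were not called, beside 7.26% and 7.79% of all genes, and the median member difference was 0.53 against 0.14 over all genes. No member separated all libraries of the 2 classes, beside 0.342% of all genes above and 0.336% below. Irf7 had 4.36 to 60.1 CPM (median 19.2) in Tim4+ and 0.246 to 17.1 CPM (median 5.57) in Tim4- libraries, a difference of 2.69 ± 0.45 (edgeR adjusted p = 3.25e-04). Oas2 had 112 to 256 CPM (median 215) against 0.741 to 201 CPM (median 66.3), a difference of 3.09 ± 0.35 (edgeR adjusted p = 3.63e-06). Both genes overlapped between the classes, and the low end of the Tim4- range was pop4.

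Ifit3 had 10.2 to 135 CPM (median 26.8) in Tim4+ and 0 to 58 CPM (median 16.4) in Tim4- libraries (2.97 ± 0.7, edgeR adjusted p = 0.00718). Mx2 had 0.441 to 78.8 CPM (median 12.8) against 0 to 40 CPM (median 1.01) (2.87 ± 0.76, edgeR adjusted p = 0.0147), and Rsad2 7.34 to 205 CPM (median 92.5) against 0.247 to 203 CPM (median 10.3) (2.02 ± 0.58, edgeR adjusted p = 0.024). All 3 overlapped widely. The other higher members were Ddx60 (1.90), Ifi204 (1.15), Ifih1 (1), Slfn8 (0.99), Slfn5 (0.92), Irgm1 (0.67) and Parp14, a regulator of macrophage signalling (0.51). Gbp8 alone was lower, at 0 to 0.934 CPM in Tim4+ and 0.114 to 84.2 CPM in Tim4- libraries (-4.00 ± 1.24, edgeR adjusted p = 0.0334). Against pop3 alone, a choice made after seeing the data, Irgm1 (1.44) and Ifih1 (1.3) were the 2 members called and Slfn5 turned to -0.19, whereas against pop4 alone 18 were higher and 2 lower. With background as a covariate Oas2 and Irf7 were the 2 members called, beside 405 of all genes, and with CD libraries alone Slfn5 and Mx2.

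Plasmacytoid dendritic cells are a main source of interferon, so their markers were read beside this result. The list of 8, one of which is the member Bst2, summed to 646 to 1160 CPM in Tim4+ and 129 to 788 CPM in Tim4- libraries, with 7 and 8 of the 8 over the floor in some library. Tcf4, a factor also found in other cells, made up most of it with 606 ± 102 CPM in pop1 and 83.3 ± 14.8 in pop4, and Siglech had 103 ± 51.4 CPM in pop1, 177 ± 167 in pop2, 34.3 ± 18.2 in pop3 and 0.13 ± 0.107 in pop4. Spib (0.544 ± 0.417 CPM) and Ly6d (0.214 ± 0.234 CPM) were near zero in pop1. Their part in the result was not tested.

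The MHCII low and MHCII high gates of Tim4+ cells were compared next. Comparing pop1 with pop2, edgeR called 0 of the 50 genes, beside 0.466% of all genes, with 6 at an unadjusted p below 0.05 (Irf7, Ifi35, Ifi209, Mx2, Usp18 and Slfn1), beside 1664 of all 16961 genes, and DESeq2 called 3, beside 567 of all genes. Irf7 had 60.1 and 4.55 CPM in pop1 HFD and 36.5 and 34.8 in pop1 CD, against 4.36 and 23.3 in pop2 HFD and 4.86 and 15 in pop2 CD. One pop1 library thus fell inside the pop2 range, and the difference of 1.53 ± 0.57 was not called (edgeR adjusted p = 0.337).

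The CD11c- and CD11c+ gates of Tim4- cells were then compared. Against pop4, 10 members were higher in pop3 and 2 lower, beside 4.25% and 2.32% of all genes, with a median of 0.35 against 0.17 over all genes. In 7 of the 50 members the 4 pop3 libraries were all above the 4 pop4 libraries, beside 8.48% of all genes, and in 1, Gbp8, all below, beside 6.04%. Oas2 had 163 and 201 CPM in pop3 HFD and 135 and 112 in pop3 CD, against 1.23 and 0.741 in pop4 HFD and 1.31 and 20.6 in pop4 CD. The difference was 5.50 ± 0.55 (edgeR adjusted p = 2.3e-06), and even the highest pop4 library was far below pop3.

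Slfn5 had 287 and 163 CPM in pop3 HFD and 252 and 237 in pop3 CD, against 37.6 and 42.5 in pop4 HFD and 64.8 and 63.1 in pop4 CD (2.21 ± 0.2, edgeR adjusted p = 4.04e-07). Ifi204 had 160 and 148 CPM in pop3 HFD and 391 and 355 in pop3 CD, against 30.3 and 98 in pop4 HFD and 24 and 103 in pop4 CD (1.91 ± 0.35, edgeR adjusted p = 0.00238). Both genes were higher in every pop3 library. Ddx60 had 196 and 306 CPM in pop3 HFD and 232 and 130 in pop3 CD, against 15.5 and 97.3 in pop4 HFD and 45.5 and 10.6 in pop4 CD, again without overlap (2.42 ± 0.59, edgeR adjusted p = 0.0181). Ifit3 had 0.237 and 30.8 CPM in pop3 HFD and 58 and 33.1 in pop3 CD, against 0.123 and 0 in pop4 HFD and 3.27 and 29.5 in pop4 CD (4.54 ± 1.11, edgeR adjusted p = 0.0181). Here 1 pop3 library was as low as pop4. Oasl2 (1.94), Slfn8 (1.53), Lgals3bp, a secreted glycoprotein (1.28), Ifi203 (0.94) and Parp14 (0.92) were the other members called higher.

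Gbp8 and Irgm1, both GTPases, ran the other way. Gbp8 (chr5:105014153-105053561) had 0.355 and 0.114 CPM in pop3 HFD and 0.712 and 0.945 in pop3 CD, against 47.7 and 84.2 in pop4 HFD and 64.8 and 46 in pop4 CD (-7.04 ± 1.87, edgeR adjusted p = 0.0282). Outside pop4 it exceeded 1 CPM in 3 monocyte libraries only, at 4.89, 5.07 and 15.5 CPM. Irgm1 had 51.2 and 31.1 CPM in pop3 HFD and 34 and 38.5 in pop3 CD, against 116 and 115 in pop4 HFD and 47.4 and 175 in pop4 CD, a single pop4 library within the pop3 range (-1.55 ± 0.32, edgeR adjusted p = 0.00625). Background was 194 to 659 CPM in pop3 and 79.6 to 190 CPM in pop4. With it as a covariate Oas2 and Slfn5 stayed called, beside 138 of all genes. Without pop4 CD library 7, or without pop4 HFD library 2, 6 members were called in place of 12.

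**Figure D4:**
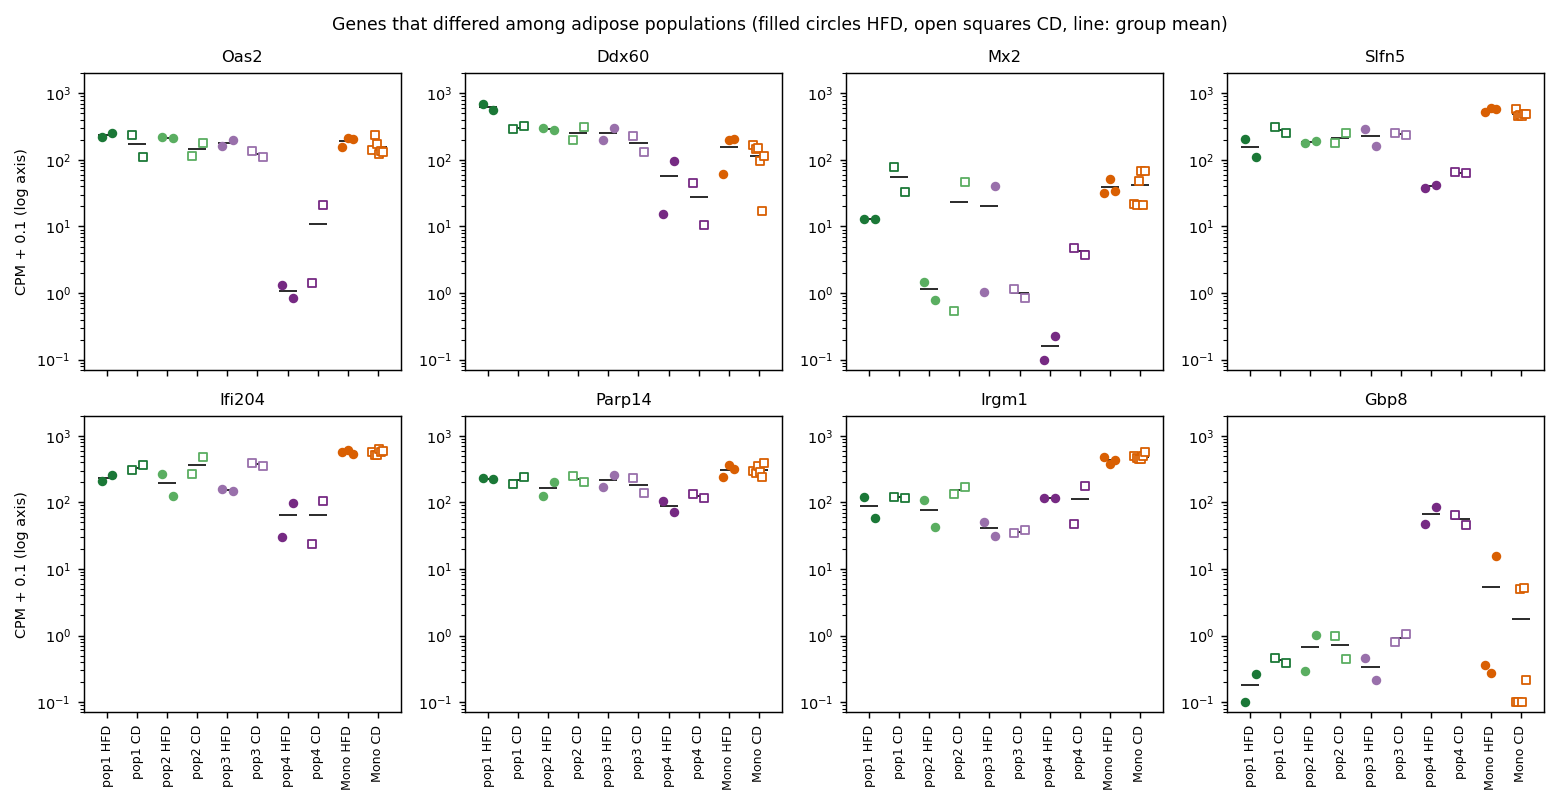
CPM + 0.1 on a log axis in each library, monocytes at the right, for 8 members called between adipose classes, filled circles HFD and open squares CD, lines the group means. Oas2 and Slfn5 are lowest in the 4 pop4 libraries and Gbp8 is highest there.

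Diet was compared within each population, with 2 HFD and 2 CD libraries each. The adipose CD libraries carry the CD-CD title and other replicate numbers, so diet and title series cannot be told apart there. In control monocytes, 3 CD against 3 CD-CD libraries, edgeR called 0 of the 49 members tested, beside 0% of 10862 genes, with 6 at an unadjusted p below 0.05 (887 of the 10862 genes). In monocytes on HFD against CD, edgeR called 0 of 50 members, beside 0.0059% of all genes, with 0 at an unadjusted p below 0.05 (1169 of all genes), and DESeq2 called 0 (140 of all genes). Irf7 had 248, 305 and 269 CPM in HFD monocytes against 161 to 294 CPM in CD monocytes (0.38 ± 0.54). In pop1 edgeR called 0, beside 0.436% of all genes, with 7 at an unadjusted p below 0.05 (1887 of all 16961 genes), and DESeq2 called 2 (736 of all genes). In pop3 edgeR called 0, beside 0.0943%, with 11 at an unadjusted p below 0.05 (1873 of all genes), and DESeq2 called 7 (717 of all genes). In pop4 edgeR called 0, beside 0.0354%, with 12 at an unadjusted p below 0.05 (1186 of all genes), and DESeq2 called 5 (130 of all genes).

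Among the uncalled differences in pop4 were those of Ifit3, with 0.123 and 0 CPM in HFD against 3.27 and 29.5 CPM in CD libraries, and of Irf7, with 0.246 and 0.247 CPM in HFD against 5.75 and 17.1 CPM in CD libraries. For Irf7 the HFD libraries held under 3 counts each, and the edgeR adjusted p was 0.105. Neither gene overlapped between diets, but with 2 libraries against 2 this held for 21.2% of all genes below and 14.7% above.

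In pop2, 4 members were lower and 2 higher on HFD, beside 3.44% and 0.755% of all genes. With 2 libraries against 2, the diets did not overlap in 19 members that were lower and 5 that were higher, beside 18.4% and 28.9% of all genes. Usp18 had 0 and 1.4 CPM in HFD and 1.1 and 68.8 CPM in CD libraries (edgeR adjusted p = 0.0276), so a single control library made its difference, and Ifi205 had 0.992 and 0.7 CPM against 2.65 and 101 CPM (edgeR adjusted p = 0.0369). The other calls were smaller: Ifi203 had 260 and 137 CPM against 422 and 448 CPM (-1.13 ± 0.29, edgeR adjusted p = 0.0296), and Ifi209 131 and 183 CPM against 289 and 306 CPM (-0.92 ± 0.25, edgeR adjusted p = 0.0406). Sp100 was higher, with 268 and 362 CPM against 192 and 172 CPM (0.79 ± 0.22, edgeR adjusted p = 0.043), as was Oas1b, with 5.55 and 73.5 CPM against 0.441 and 1.05 CPM (edgeR adjusted p = 0.0497). Without pop2 CD library 8, edgeR called 0 members, and without pop2 HFD library 3 it called 2. The pop2 HFD libraries were the shallowest of the adipose libraries, at 4479775 and 3752835 counts, and 38 of the 50 members were higher in pop2 CD library 8 than in CD library 7.

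Averaged over the 4 adipose populations, 6 members were lower on HFD and 0 higher, beside 3.67% and 1.67% of all genes. The median was -0.46 against -0.12 over all genes. The same 2 replicate numbers per diet recur in all 4 gates, and the fit took the gates as separate replicates. Libraries of the same number may not be independent. Ifi205 had 0 to 0.992 CPM (median 0.199) in the 8 HFD libraries and 0.135 to 101 CPM (median 15.7) in the 8 CD libraries (-6.22 ± 0.85, edgeR adjusted p = 2.37e-04). The lowest control library, in pop4, lay within the HFD range, and the others lay above it. Ifi209, in the same cluster, had 93.5 to 209 CPM (median 135) against 157 to 359 CPM (median 264), and was the next in adjusted p (-0.80 ± 0.13, edgeR adjusted p = 6.93e-04).

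Ifit2 (-2.16), Gbp2 (-1.12), Rtp4, a chaperone of receptors (-1.10), and Xaf1, a pro-apoptotic adaptor (-1.02), were the other members lower, all with overlap. Summing counts over the 4 populations takes same-numbered libraries as 1 sample, and edgeR then called 0 members and 0 of all genes. With adipose libraries alone in the fit 2 members were called. The difference in diet effect between adipose macrophages and monocytes was called for Ifi205 (-6.50 ± 1.16, edgeR adjusted p = 0.0364), 1 of 50 beside 0.0884% of all genes. In monocytes it had 200, 192 and 199 CPM on HFD and 78.1 to 218 CPM on CD. That call was lost in 19 of 30 alternatives, with the value between -7.02 and -5.26. Over the 8 HFD and 8 CD adipose libraries background was 79.6 to 686 and 116 to 659 CPM, and stromal markers summed to 31.5 to 665 and 52.2 to 1340 CPM. Their part in the result was not tested.

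**Figure D5:**
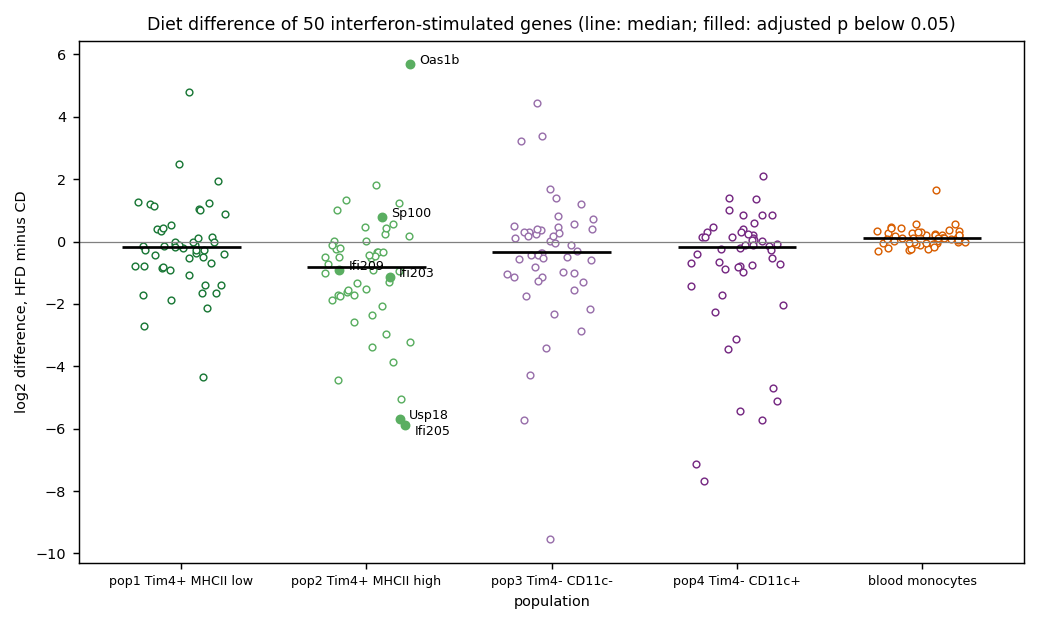
Log2 differences of HFD from CD for the 50 genes in each adipose population and in monocytes, 1 point per gene, lines the medians, filled and named where called. The called points are the 6 of pop2, and the monocyte points lie closer to zero than those of the adipose populations. Monocytes had 3 HFD and 6 CD libraries and each adipose population 2 and 2. The members' median coefficient of variation was 0.229 in monocyte and 0.654 in adipose libraries, and adipose diet cannot be told apart from title series. The part of each was not tested.

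Other genes of the interferon pathway, from a textbook list of 114 of which 92 could be tested, were lower in adipose macrophages in 60 cases and higher in 2, against monocytes, beside 18.5% of all genes each way. Of the receptors and kinases 3 of 9 were lower and none higher, with Ifnar1 at 172 ± 49.5 CPM in adipose tissue and 180 ± 40.2 in monocytes (not called) and Jak1 at 464 ± 83.6 and 448 ± 46.3 (not called), whereas Ifngr2, a chain of the interferon gamma receptor, differed by -1.60. Of the transcription factors 6 of 8 were lower. Of the negative regulators 6 of 8 were lower, with Socs1, an inhibitor of JAK kinases, at 1.88 ± 3.19 CPM against 12.5 ± 10.5 CPM (-5.01 ± 0.92, edgeR adjusted p = 3.4e-04).

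Of the 14 sensors and adaptors 5 were lower and Tlr3, the endosomal receptor of double-stranded RNA, was higher at 54.6 ± 44.7 CPM against 13.8 ± 9.08 CPM (1.88 ± 0.68, edgeR adjusted p = 0.0345). Of 51 further induced genes 40 were lower and 1 higher. Ifit1bl1 (-5.61), Tgtp1 (-5.12), Cxcl10 (-5.00) and Ifit3b (-4.94) had, with Socs1, the 5 largest differences among the lower genes, and Cxcl10, a chemokine for T cells, had 31.6 ± 71.3 CPM against 198 ± 63.7 CPM. The gene called higher, Cxcl11, stayed at 0 to 1.63 CPM in adipose and 0 to 0.127 CPM in monocyte libraries, close to the floor. Interferon genes themselves were almost unread: of 19, 2 could be tested and neither was called in the adipose mean. Ifnl3 was called higher in pop1 against monocytes (2.5 ± 0.93, edgeR adjusted p = 0.0464), but had at most 14 counts in any library. Counts of the 19 genes summed to 0 to 12.6 CPM in adipose and 0.242 to 21.1 CPM in monocyte libraries.

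The highest monocyte sum was that of CD library 1, in which Ifnb1, interferon beta, had 126 counts (15.7 CPM), whereas it was over the floor in 0 of the 16 adipose libraries. Between Tim4+ and Tim4- cells 10 of the 92 pathway genes were higher and 9 lower, close to the 7.26% and 7.79% of all genes. They were led by Ifnl3 (3.78, at most 14 counts in any library), Ifit3b (3.55) and Slfn4 (3.36) among the higher and by Ms4a4c (-2.38), Tgtp2 (-2.30) and Mb21d1, the DNA sensor cGAS (-1.82), among the lower. Between pop3 and pop4, 7 of the 92 were higher, led by Ifi211 (2.29), Irf8 (2.05) and Tlr7 (1.97), and Trex1 (-1.51) and Samhd1 (-0.68) were lower, beside 4.25% and 2.32% of all genes. Between pop1 and pop2 Ifngr2 alone was called (-0.95 ± 0.21, edgeR adjusted p = 0.0365).

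On HFD, over the adipose mean, 7 of the 92 pathway genes were higher and 10 lower, beside 1.67% and 3.67% of all genes. Socs1 (5.10), Tyk2 (1.18) and Irf1 (0.90) led the higher and Ifit1bl1 (-3.91), Slfn4 (-3.01) and Ifi211 (-1.81) the lower. Socs1 was not called in any adipose population alone (SE 2.12 to 3.11), so its size is imprecise. In pop2, 9 were lower, led by Tgtp2 (-4.78), Mb21d1 (-3.59) and Phf11b (-3.30), and Psmb10 (1.79) and Irf5 (1.23) were higher, beside 3.44% and 0.755% of all genes. The difference in diet effect between adipose macrophages and monocytes was called for Ifitm6 alone (-1.13 ± 0.19, edgeR adjusted p = 0.0332).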

How the data were processed

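RNA-seq libraries of 200 sorted cells were read from 1 table of raw counts per gene, unmodified by any scaling as the authors deposited it. STAR 2.5.3a, HOMER and the build mm10 are named per the submitters' processing notes, and the settings used for strand and for reads with several hits are not given in the sources used here. All 25 sample columns were matched to samples by their labels, and no column was left over. Genes with low counts were removed by edgeR's filterByExpr, which left 16961 of 24537. Counts were scaled by TMM and fitted with edgeR 4.0.16 in R 4.3.3 (quasi-likelihood F test, 10 group means, 25 libraries, 15 residual degrees of freedom, common biological coefficient of variation 0.749). P-values were adjusted over all genes tested and called below 0.05. A standard error is the size of the log2 difference divided by the square root of F. Depth per library limits a level to a floor of 3 counts, which covers counting error only, whereas SDs hold the spread between libraries. Standard errors and p-values rest on 1 estimate of spread per gene, shared by all 25 libraries. The members' median coefficient of variation was 0.654 in adipose and 0.229 in monocyte libraries, so the shared estimate can differ from the spread of the libraries compared. With adipose libraries alone in the fit, 8 members were called between Tim4 classes in place of 13. With monocyte libraries alone, diet in monocytes had 0 calls.

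The 50 genes and every list were chosen with earlier results of these data known. Values are given for fixed anchors of each role, for the 5 largest calls in each direction, for calls against the majority, and for the 3 highest and lowest levels per kilobase. Pathway genes were named up to 5 in each direction against monocytes and up to 3 elsewhere. The scripts were tested on simulated counts. Promoters were the 250 bases before and 50 after a RefSeq start. Alternatives were other scaling factors, no filter, DESeq2 1.42.0, a background covariate, the replicate block, each diet or tissue alone, summed counts and leaving out each library. No pair of libraries was identical.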

Additional observations from a re-analysis of the deposited data

Results flagged for a closer look

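Of 50 members tested in the 6 CD monocyte libraries, 3 (6%) had a library far from the others, where chance flags about 1 in 20. Isg15 stood at 37.4 CPM in CD library 1, with the others at 0.761 to 13.4 CPM. That library was also the single one in which Ifnb1 was over the floor, at 15.7 CPM. Bst2 stood at 113 CPM in CD library 8, with the others at 60.5 to 69.3 CPM. Slfn5 stood at 575 CPM in CD library 1, with the others at 450 to 493 CPM.

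The effect of diet on Ifi205 differed between adipose macrophages and monocytes by -6.50 on the log2 scale (edgeR's interaction contrast). The HFD libraries of adipose tissue had 0 to 0.992 CPM against 0.135 to 101 CPM in CD, and HFD monocytes 192 to 200 CPM against 78.1 to 218 CPM in CD.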

How the results depend on the processing

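Against monocytes, 46 members were called, and 45 with DESeq2 size factors or upper-quartile factors, 46 without the filter, 46 by DESeq2, 32 with the background covariate, 42 with CD libraries alone, 39 with HFD libraries alone, and 44 to 46 without 1 library. The median of all genes was 0.19 with TMM, 0.35 with DESeq2 size factors and 0.31 with upper-quartile factors, and changes are to be read relative to it.

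Counts that moved by over 1.5 times were these; the cause was not tested. With the background covariate, pop1 had 11 calls against monocytes, pop2 12 and pop3 14. The same setting gave 2 between Tim4 classes, 2 for pop3 against pop4, 2 for diet in pop2, 3 for diet in adipose tissue and 0 for the difference in diet effect, which was also 0 without the filter. DESeq2 called 21 between Tim4 classes and 3 between pop1 and pop2. For diet it called 2 in pop1, 12 in pop2, 7 in pop3, 5 in pop4, 14 in adipose tissue and 2 for the difference in diet effect. CD libraries alone gave 17, 15, 20 and 22 for pop1 to pop4 against monocytes, 2 between Tim4 classes and 3 for pop3 against pop4. HFD libraries alone gave 10, 14 and 17 for pop1, pop3 and pop4 against monocytes and 2 for pop3 against pop4. Adipose libraries alone in the fit gave 8 between Tim4 classes, 7 for pop3 against pop4 and 2 for diet in adipose tissue, and counts summed over populations gave 0 for diet in adipose tissue. Of the settings chosen after seeing the data, leaving out both pop2 HFD libraries gave 17 for pop2 against monocytes and 2 for diet in adipose tissue, and Tim4+ cells had 2 calls against pop3 alone and 20 against pop4 alone.

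Leaving out 1 library at a time gave 0 to 2 calls between pop1 and pop2, 6 to 10 for pop3 against pop4, 0 to 8 for diet in pop2, 0 to 1 in pop3, 0 to 2 in pop4, 2 to 10 in adipose tissue, and 0 to 2 for the difference in diet effect. Diet in pop2 had 0 calls without CD library 8 and 2 without HFD library 3. Diet in adipose tissue had 2 without pop4 CD library 8, 3 without pop2 CD library 8 or pop4 HFD library 2, and 10 without pop3 HFD library 3.

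Signs turned for genes near zero. Gbp7 against monocytes was 0.12 with DESeq2 size factors, 0.08 with upper-quartile factors, 0.15 with the covariate, 0.12 by DESeq2, 0.09 with CD libraries alone, 0 without both pop2 HFD libraries, and -0.17 to 0.13 without 1 library. Gbp3 was 0.14 with the covariate and 0.13 with CD libraries alone, and Gbp8 was 0.06 with CD libraries alone and -1.52 to 1.07 without 1 library. Oas1b in pop2 against monocytes was 0.02 with HFD libraries alone. Slfn5 was -0.19 in Tim4+ cells against pop3 alone, and Irgm1 -0.11 against pop4 alone. Of 5923 values of single genes, 5049 kept direction and call, 857 lost the call and 17 turned.

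Deviations of same-numbered libraries were correlated over 0.1 in 0 of 40 pairs from different populations, monocytes included. They were so in 0 of 3 pairs of monocyte libraries from different diets. In adipose groups of 2 libraries the 2 deviations mirror each other, so this cannot tell whether same-numbered libraries share an animal. The replicate block gave 44 calls against monocytes (23, 28, 28 and 33 for pop1 to pop4), 10 between Tim4 classes, 0 between pop1 and pop2, 8 for pop3 against pop4 and 0 for diet in monocytes. Depth limits Isg15, Ifi44, Gbp8, Ifi205 and Mx2, at or under 3 counts in at least 4 of the 16 adipose libraries.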
